A study of Caenorhabditis elegans with 4 samples.

Results

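The genes described here are 8 effector genes of the *Caenorhabditis elegans* innate immune response, namely *irg-4*, *irg-5*, *irg-6*, *dod-17*, *dod-24*, T24B8.5 (*sysm-1*), C17H12.8 and K08D8.5. They were taken by locus tag from a table of 21895 genes, and all 8 had a row and enough counts to be tested. RNA came from whole N2 worms of the Bristol wild type, grown on *E. coli* OP50, synchronized, and then shaken in M9 buffer for 24 h. Control worms received the solvent DMSO and treated worms received 0.25 mg/mL of Cyclo(Pro-Tyr), in which proline and tyrosine are joined in a ring, with 2 libraries in each group. Exposure began in embryos or L1 larvae, and no source says which of these gave the RNA. Nothing in the labels ties the libraries to separate cultures, so the errors below measure the spread between libraries, which may be technical.

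In the worm gut, infection and toxins switch on secreted proteins that act in the lumen or at the cell surface. Much of this response runs through the p38 MAP kinase pathway, in which the adaptor TIR-1 and the kinases NSY-1, SEK-1 and PMK-1 act in turn and PMK-1 changes the transcription factor ATF-7 from a repressor to an activator. Most of the genes treated here encode predicted secreted proteins with a CUB-like domain, a fold of unknown biochemical role in worms. The *irg* genes are named for their response to infection and the *dod* genes for their place downstream of the FOXO factor DAF-16. T24B8.5 encodes a small toxin-like peptide and is widely used as a reporter of p38 activity.

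The 8 genes were chosen by name with the measured differences between these DMSO and Cyclo(Pro-Tyr) libraries already known. Those differences are therefore given as a description. Results for the 8 genes from the tests run over all genes are listed further below, and nothing is read from them. Levels are TMM-scaled CPM, that is counts scaled to library size (CPM) after an adjustment for library composition. In these units 1 count was worth 0.0188 to 0.0256 CPM. The libraries held 40240674 to 52987317 counts. In 1 respect a library stood apart: summed moulting genes read 203 CPM in Cyclo(Pro-Tyr) replicate 2 against 501 in replicate 1, so values without replicate 2 are also given. In the Ensembl annotation of assembly WBcel235 no exon of the 8 genes overlaps another coding gene or pseudogene. None overlaps a noncoding gene on the opposite strand, and noncoding genes on the same strand were not checked. Reads shared between related copies were not tested, because no sequences were used here.

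The 3 *irg* genes were higher in Cyclo(Pro-Tyr), by factors of 2 to 4, while the other 5 genes stayed close to their DMSO levels. The gene with the largest difference was *irg-5* (CELE_F35E12.5), a pathogen-induced gene with a CUB-like domain. It gave 131 and 108 counts in DMSO replicates 1 and 2, against 503 and 372 in Cyclo(Pro-Tyr) replicates 1 and 2. In scaled units these were 2.55 and 2.495 CPM in the controls and 9.44 and 9.53 CPM after treatment. Both treated libraries lay far above both controls, and within each group the libraries differed by less than their 95% counting intervals. The mean went from 2.52 ± 0.0378 to 9.49 ± 0.0600 CPM (mean ± SD, n = 2 for these and the following means). The log2 fold change was 1.91 (standard error 0.16), a 3.76-fold difference that ranked 24 from the top among 19439 tested genes.

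The *irg-4* gene (CELE_F08G5.6), another infection-induced gene with a CUB-like domain, read 5.88 and 4.09 CPM in the controls and 10.5 and 10.4 CPM after treatment. The treated libraries were nearly equal, and the spread lay in the controls, where DMSO replicate 2 was the lower. Its log2 fold change was 1.07 (standard error 0.19), or 2.09-fold. It was 1.36 without DMSO replicate 1 and 0.83 without DMSO replicate 2.

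The *irg-6* gene (CELE_C32H11.1) had the fewest counts of the 3 in every library, with 87 and 66 in DMSO and 204 and 106 in Cyclo(Pro-Tyr). Its levels were 1.69 and 1.52 CPM in the controls and 3.83 and 2.72 CPM after treatment. The groups did not overlap, but here the spread lay in the treated libraries, replicate 1 being the higher. The log2 fold change was 1.03 (standard error 0.25), or 2.05-fold. Leaving out Cyclo(Pro-Tyr) replicate 1 gave 0.75, and leaving out replicate 2 of that group gave 1.25.

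**Figure D1:**
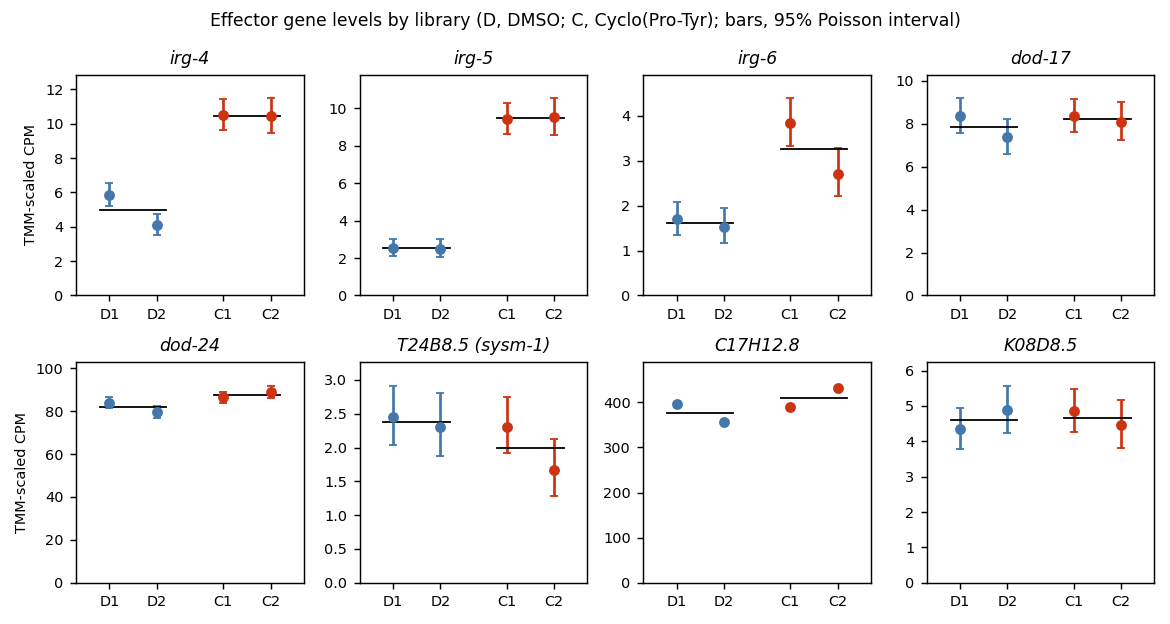
TMM-scaled CPM (vertical axes, each from 0) of the 8 effector genes in the DMSO libraries (D1, D2) and the Cyclo(Pro-Tyr) libraries (C1, C2). Points are single libraries with 95% exact Poisson intervals, which cover counting error only, and black lines are group means; *irg-5* stands at 2.55 and 2.495 CPM in the controls and 9.44 and 9.53 CPM after treatment, while *dod-17*, K08D8.5 and C17H12.8 overlap between groups.

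The *dod* genes differed little between groups. The *dod-24* gene (CELE_C32H11.12), an abundant gut transcript that insulin signalling and pathogens both affect, read 83.8 and 79.5 CPM in the controls and 86.5 and 88.9 CPM after treatment. The treated libraries were both above the controls, by a small margin. The log2 fold change was 0.10 (standard error 0.10). For *dod-17* (CELE_K10D11.1) the values were 8.37 and 7.37 CPM in the controls and 8.36 and 8.09 CPM after treatment. Both treated values lay within the range of the controls, at a log2 fold change of 0.06 (standard error 0.15). The sign turned without DMSO replicate 2, at -0.026.

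The remaining 3 genes carry neither an *irg* nor a *dod* name here. T24B8.5 (CELE_T24B8.5), the p38 reporter gene, gave 126 and 100 counts in DMSO and 123 and 65 in Cyclo(Pro-Tyr), or 2.45, 2.31, 2.31 and 1.67 CPM in that order. Only Cyclo(Pro-Tyr) replicate 2 stood clearly below the others, and the 95% counting intervals of all 4 libraries overlapped. The log2 fold change of T24B8.5 was -0.24 (standard error 0.24). The value was -0.042 with the lower treated library left out and -0.52 with the other treated library left out.

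C17H12.8 (CELE_C17H12.8) was the most abundant of the 8 genes, at 396 and 356 CPM in the controls and 389 and 431 CPM after treatment. The groups overlapped, and the spread within each was close to 30 CPM (SD of 28.2 and 29.4). The log2 fold change was 0.12 (standard error 0.13). K08D8.5 (CELE_K08D8.5) read 4.34 and 4.87 CPM in the controls and 4.84 and 4.46 CPM after treatment. Its groups overlapped almost fully, at a log2 fold change of 0.018 (standard error 0.17). Between -0.064 and 0.100 without single libraries, K08D8.5 had no settled direction. With 174 to 258 counts a library, K08D8.5 was counted more deeply than *irg-6*.

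A gene was called where its p, from edgeR's quasi-likelihood test and adjusted over all tested genes, was under 0.05. Of the 8 genes 2 (*irg-4* and *irg-5*) were called higher and 0 lower, where 0.715% of all tested genes were called higher and 1.33% lower, 2.05% in all. DESeq2 called 3 of the 8 higher. Of the 16424 genes to which it gave an adjusted p, it called 4.82% higher and 6.08% lower, 10.9% in all. The 3 *irg* genes and 0 of the other 5 had an unadjusted p under 0.05, as had 27.3% of all genes. The treated libraries lay wholly above the controls for 4 of the 8 genes, against 29.6% of all tested genes. They lay wholly below for 1 (T24B8.5, by less than 1 count is worth), against 30.8%. Nothing is read from these counts, since the same comparison was in view when the genes were listed. Without DMSO replicate 1 or DMSO replicate 2 edgeR called 0 of the 8, with 0 and 4 calls among all genes. Under a filter that kept genes reaching 5 CPM in 2 or more libraries it also called 0, and 0 among all genes. The edgeR adjusted p was then 0.0799 for *irg-4* and 0.0517 for *irg-5*. For *irg-5* only the treated libraries reached 5 CPM, and for *irg-4* these and DMSO replicate 1. Both genes thus passed the filter through the group where they were high, and nothing is read from these p values. With total counts as the scaling edgeR called 1, *irg-5*, and *irg-4* missed the threshold at 0.0535.

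**Figure D2:**
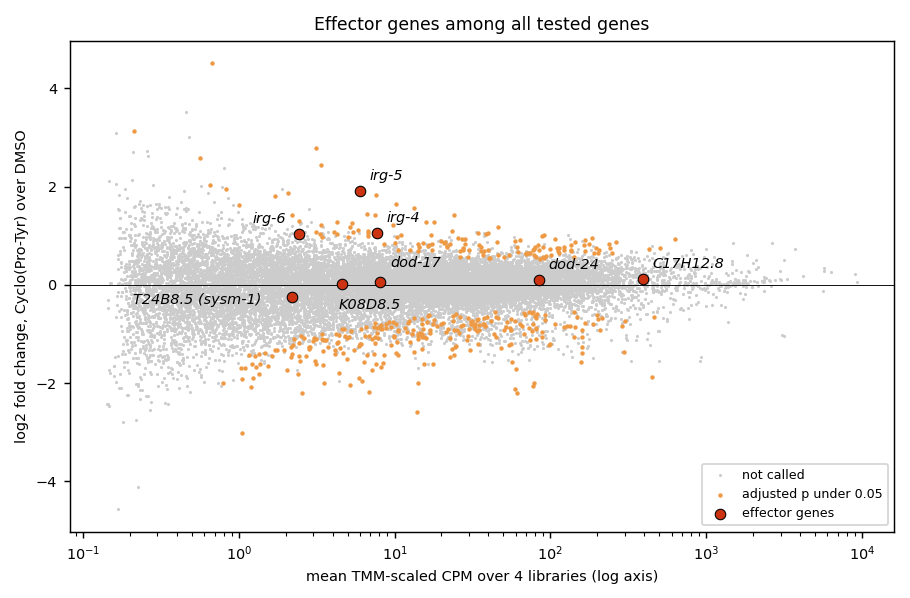
Log2 fold change of Cyclo(Pro-Tyr) over DMSO (vertical axis) against mean TMM-scaled CPM over the 4 libraries (horizontal log axis) for the 19439 tested genes. Grey points were not called, orange points had an edgeR adjusted p under 0.05, and the 8 effector genes are ringed; *irg-5* sits at 1.91, *irg-4* and *irg-6* near 1, and the other 5 near 0 over a range of levels from 2.18 to 393 CPM.

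The 8 genes also differed in how much transcript they gave. Levels between genes are compared here as CPM per kilobase of annotated exon, in DMSO. C17H12.8 led with 343 and *dod-24* followed with 70.6 CPM per kilobase. A group of 4 genes lay between 4 and 7, with *dod-17* at 6.90, T24B8.5 at 5.07, *irg-4* at 4.52 and K08D8.5 at 4.31. Among these, the 2 libraries of *irg-4* (5.33 and 3.71) spanned those of T24B8.5 and K08D8.5, so *irg-4* has no settled place in the order. In both libraries the value of T24B8.5 was above that of K08D8.5, and that of *dod-17* was above all 3. Whether counting error alone separates these genes was not tested. Lowest were *irg-5* at 2.26 and *irg-6* at 0.958 CPM per kilobase, each apart from its neighbour in that order in both libraries.

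In Cyclo(Pro-Tyr) the order changed at its lower end. There *irg-4* stood at 9.50 and *irg-5* at 8.49 CPM per kilobase, both above *dod-17* at 7.21. K08D8.5 at 4.35 and T24B8.5 at 4.23 overlapped in their libraries, and *irg-6* stayed the lowest at 1.95. The SD of *irg-5* between libraries was 0.0378 CPM in DMSO, against 1.26 CPM for *irg-4*.

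**Figure D3:**
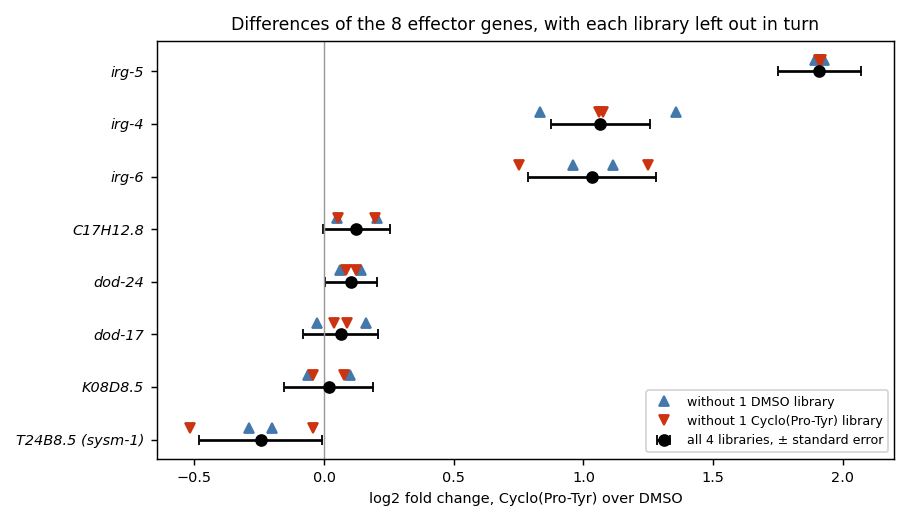
Log2 fold change of Cyclo(Pro-Tyr) over DMSO (horizontal axis) for the 8 effector genes. Black points with bars are the estimate from all 4 libraries ± its standard error, and triangles are estimates with 1 library left out; *irg-5* stays between 1.89 and 1.93, *irg-4* spreads with the DMSO libraries and *irg-6* with the Cyclo(Pro-Tyr) libraries.

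Position in the genome was not part of how the genes were chosen. Of the 8 genes, 6 lie on chromosome IV, *irg-5* on chromosome V and T24B8.5 on chromosome II. In the RefSeq gene order K08D8.5 and *irg-6* are direct neighbours on the same strand, and the stretch that starts with them and ends with *dod-17* holds 26 tabled genes, *dod-24* among them. The ratio of *irg-6* to K08D8.5 within a library does not depend on any scaling. It was 0.390 and 0.313 in DMSO and 0.791 and 0.609 in Cyclo(Pro-Tyr), so both treated libraries were above both controls. The ratio of *irg-5* to its neighbour F35E12.6 was 0.0787 and 0.0817 in DMSO and 0.269 and 0.233 in Cyclo(Pro-Tyr). For *irg-4* and the adjacent lectin gene *clec-184* the ratios were 1.40 and 1.23 against 2.17 and 1.63, a smaller separation than that of *irg-5*.

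Of the 22 other genes in that stretch of chromosome IV, 16 had enough counts to be tested. By edgeR 0 of these were called in either direction (2.05% of all genes), and 5 had an unadjusted p under 0.05 (27.3% of all). DESeq2 called 1, higher (10.9% of genes with a DESeq2 adjusted p). The median log2 fold change of the 16 was 0.15, with 9 above 0 and 7 below. Over all tested genes the median was -0.0032. The *dod-22* gene, an infection-responsive gene with CUB-like domains, went from 12.6 ± 2.59 to 19.7 ± 2.06 CPM (edgeR adjusted p 0.0714). A neighbour on the same stretch, *dod-21*, went from 5.81 ± 0.182 to 4.04 ± 0.346 CPM (edgeR adjusted p 0.105). Neither passed the threshold, and their log2 fold changes of 0.64 and -0.52 pointed in opposite directions.

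**Figure D4:**
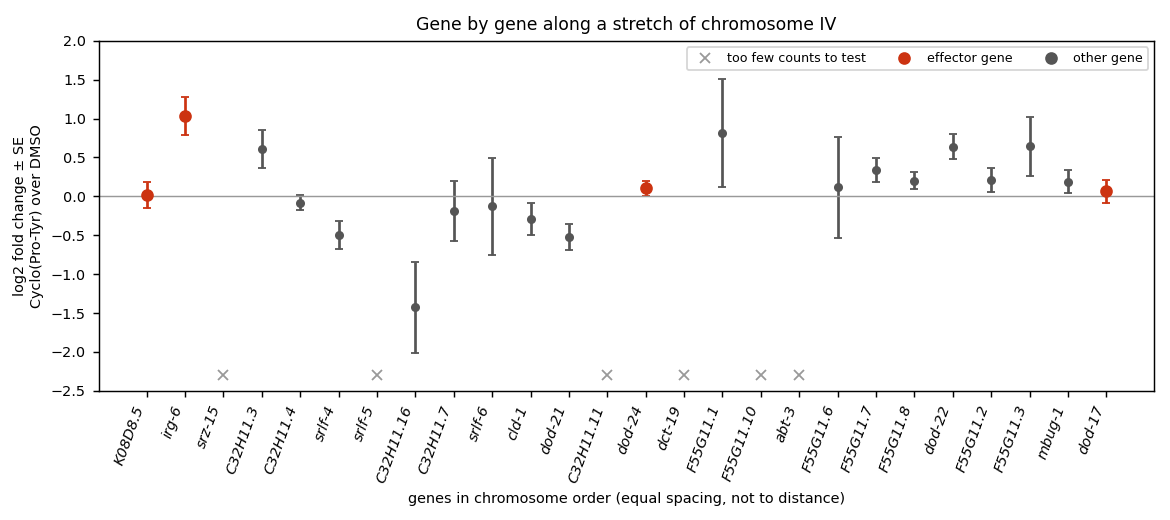
Log2 fold change of Cyclo(Pro-Tyr) over DMSO ± standard error (vertical axis) for genes in their order along chromosome IV from K08D8.5 to *dod-17*, equally spaced. Red points are effector genes of the present set, grey points other tested genes and crosses genes with too few counts; *irg-6* at 1.03 stands next to K08D8.5 at 0.018.

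A wider view took the genes that share a sequenced clone with any of the 8, which are neighbours but not all relatives. Of these 64 genes, 58 were tested. By edgeR 0 were called (2.05% of all genes), and 20 had an unadjusted p under 0.05 (27.3% of all genes). DESeq2 called 7, of which 5 were higher and 2 lower (10.9% of genes with a DESeq2 adjusted p). The median log2 fold change of the 58 was -0.012. K10D11.2, next to *dod-17*, had the largest value above 0, at 1.14 ± 0.183 CPM in the controls and 2.21 ± 0.680 CPM after treatment (edgeR adjusted p 0.104). The pseudogene C32H11.16 had the largest below 0, at -1.42, with at most 19 counts in a library and an edgeR adjusted p of 0.168.

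Upstream of these effectors, 1 of 14 genes of the p38 pathway was called higher and 0 lower. Among all tested genes 0.715% were called higher and 1.33% lower. The list was chosen with earlier results of these data known, so nothing is read from this count. The gene called was *nsy-1*, the MAP kinase kinase kinase at the head of the cascade. It read 182 and 206 CPM in the controls and 288 and 323 CPM after treatment, with no overlap between groups. Its log2 fold change was 0.65 (standard error 0.12, edgeR adjusted p 0.0484). Exons of *nsy-1* overlap F59A6.13 on the same strand and *wdr-83* on the opposite strand. The strand setting of the counting is not given in the sources used here, so the counts of *nsy-1* may include reads from these genes. Of the regulators named below, *sek-1*, *atf-7*, *olrn-1*, *mdt-15*, *nhr-86* and *zip-2* overlap other genes as well.

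The other steps of the cascade, named here for their place in it after their values were seen, did not pass the threshold. The adaptor gene *tir-1* stood at 298 ± 57.4 CPM in the controls and 243 ± 36.8 CPM after treatment. The MAP kinase kinase gene *sek-1* stood at 95.9 ± 2.75 and 118 ± 0.965 CPM (log2 fold change 0.29, edgeR adjusted p 0.117). For *pmk-1*, the p38 kinase itself, the means were 68.0 ± 0.691 and 72.9 ± 1.39 CPM, and for *atf-7* they were 316 ± 12.9 and 361 ± 22.4 CPM. Across the 14 genes the median log2 fold change was 0.15, with 10 above 0 and 4 below. An unadjusted p under 0.05 was reached by 6 of them and by 27.3% of all genes. DESeq2 called 3, against 10.9% of genes with a DESeq2 adjusted p. Next to *nsy-1* among the values above 0, *olrn-1*, a membrane protein gene that acts upstream of p38 in neurons and gut, had a log2 fold change of 0.49 (edgeR adjusted p 0.0537). The lowest value was that of the bZIP factor gene *cebp-1*, at -0.51 (edgeR adjusted p 0.0659). These are levels of RNA, and the activity of the kinases was not measured.

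Among 12 other regulators of gut immunity, 2 were called higher and 0 lower, beside the same 0.715% and 1.33% of all tested genes. This list too was chosen with earlier results known, so nothing is read from the count. The *daf-16* gene, which encodes the FOXO factor of insulin signalling, read 142 and 150 CPM in the controls and 232 and 258 CPM after treatment. Its log2 fold change was 0.75 (standard error 0.11, edgeR adjusted p 0.0355). The *fshr-1* gene, which encodes a leucine-rich repeat G protein-coupled receptor needed for gut defence in parallel to p38, read 56.6 and 56.3 CPM in the controls and 81.9 and 94.1 CPM after treatment. Its log2 fold change was 0.64 (standard error 0.11, edgeR adjusted p 0.0449). Both genes had treated libraries well above both controls, and neither overlaps another coding gene.

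Other regulators were named after their values were seen, for their known link to *irg* genes. The *mdt-15* gene, a Mediator subunit gene of xenobiotic and lipid responses, stood at 277 ± 24.7 CPM in the controls and 411 ± 0.151 CPM after treatment (edgeR adjusted p 0.0559). It overlaps R12B2.8 on the opposite strand and R12B2.13 on the same strand. For *nhr-86*, a nuclear hormone receptor that drives *irg-4* and *irg-6*, the means were 26.2 ± 0.361 and 26.9 ± 1.59 CPM. The gut GATA factor gene *elt-2* stood at 37.4 ± 0.651 and 38.7 ± 2.72 CPM. The bZIP gene *zip-2* stood at 1245 ± 34.6 and 942 ± 2.70 CPM (log2 fold change -0.40, edgeR adjusted p 0.128). Over the 12 genes the median log2 fold change was 0.12, and 5 had an unadjusted p under 0.05 (27.3% of all genes). DESeq2 called 4 (10.9% of genes with a DESeq2 adjusted p).

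The calls of *nsy-1*, *daf-16* and *fshr-1* were lost by edgeR without DMSO replicate 1, at adjusted p of 0.227, 0.219 and 0.219, and without DMSO replicate 2, at 0.339, 0.339 and 0.351, which are the highest of their alternatives. The lowest were 4.66e-04 for *nsy-1*, 1.81e-05 for *daf-16* and 8.24e-05 for *fshr-1*, and the log2 fold changes stayed between 0.54 and 0.82 in all alternatives run for these genes. Under the filter of 5 CPM all 3 calls were lost as well, at 0.0806, 0.0671 and 0.0773. With total counts *nsy-1* (0.0569) and *fshr-1* (0.0511) missed the threshold, and *daf-16* (0.0428) passed it. A replicate block, described at the end, also ended all 3 calls.

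**Figure D5:**
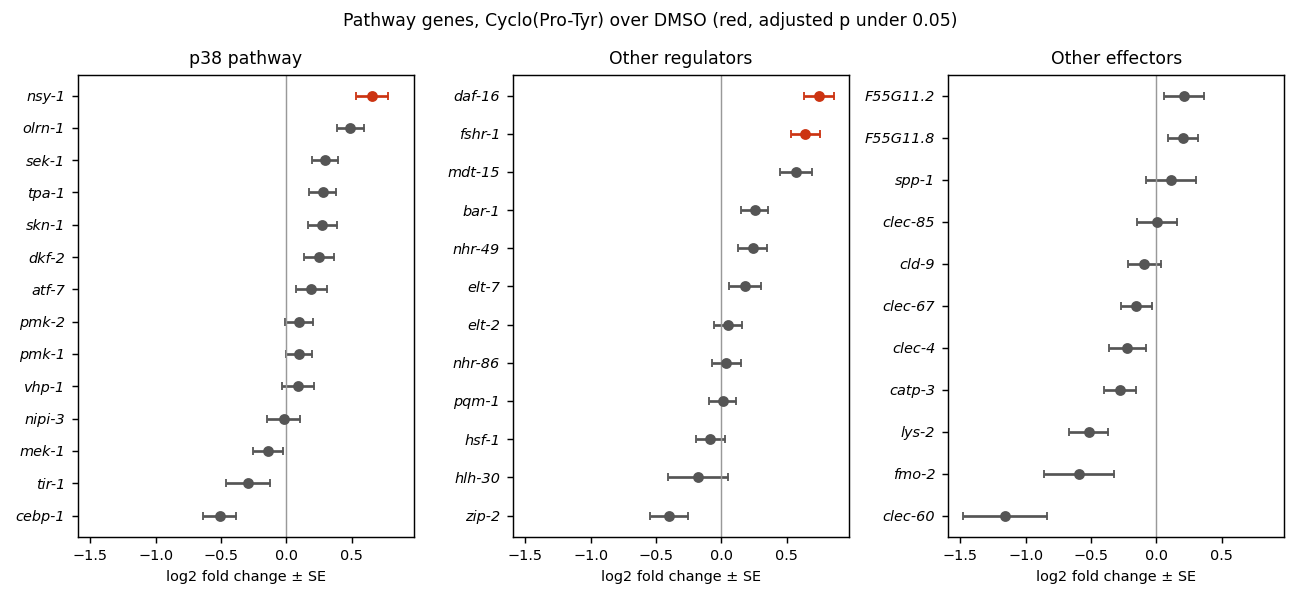
Log2 fold change of Cyclo(Pro-Tyr) over DMSO ± standard error (horizontal axes) for genes of the p38 pathway, other regulators of gut immunity and other immune effectors. Red points had an edgeR adjusted p under 0.05, namely *nsy-1*, *daf-16* and *fshr-1*, and 0 of the 11 tested effectors did.

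Among effector genes outside the set, by edgeR 0 of 11 tested effectors were called (2.05% of all genes). An unadjusted p under 0.05 was reached by 2, both lower (27.3% of all genes). DESeq2 called 1, lower (10.9% of genes with a DESeq2 adjusted p). The median log2 fold change of the 11 effectors was -0.15. Of these, *lys-2* and *clec-67* were named after their values were seen. The lysozyme gene *lys-2* stood at 92.7 ± 17.3 CPM in the controls and 64.8 ± 7.14 CPM after treatment (edgeR adjusted p 0.0864). For *clec-67*, a lectin gene used as a p38 readout, the means were 293 ± 25.03 and 263 ± 5.39 CPM. The lectin gene *clec-60* was low in all libraries, at 2.57 and 1.71 CPM in the controls and 0.789 and 1.18 CPM after treatment (edgeR adjusted p 0.0781). The flavin monooxygenase gene *fmo-2* read 31.4 and 28.0 CPM in the controls and 26.0 and 13.3 CPM after treatment (edgeR adjusted p 0.198).

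Of the 5 other genes named *irg*, edgeR called 0, 1 had an unadjusted p under 0.05 and DESeq2 called 1, lower. Their median log2 fold change was -0.15. The *irg-3* gene stood at 44.7 ± 10.4 and 30.2 ± 0.522 CPM (edgeR adjusted p 0.0817), and *irg-2* at 58.2 ± 6.15 and 49.1 ± 1.17 CPM. For *irg-1*, a target of *zip-2* in infection that was also named after its values were seen, the means were 30.3 ± 0.333 and 28.8 ± 0.830 CPM. Of the 8 other genes named *dod*, edgeR called 0, 2 had an unadjusted p under 0.05 and DESeq2 called 1, higher. Their median log2 fold change was -0.017. Beside both lists, edgeR called 2.05% of all genes, and 27.3% had an unadjusted p under 0.05. DESeq2 called 10.9% of genes with a DESeq2 adjusted p. Whether the 3 *irg* genes of the set differ from these lists was not tested.

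Genes of at least 10 CPM whose log2 CPM lay nearest to that of *irg-5* over the 4 libraries were *cest-35.2*, *dhs-23*, *lmd-4*, C18H9.5 and T16G1.4. The distance, taken after centring each gene on its mean, was 0.51 for *cest-35.2*, a carboxylesterase gene, and 0.79 for T16G1.4. The second nearest was *dhs-23*, a short-chain dehydrogenase gene, at 14.4, 12.0, 36.7 and 33.7 CPM in DMSO replicates 1 and 2 and Cyclo(Pro-Tyr) replicates 1 and 2. In these 5 genes the treated libraries were further apart or the difference was smaller than in *irg-5*. By the same measure *irg-4* lay at 0.88 and *irg-6* at 0.98 from *irg-5*, and the other 5 genes of the set between 1.77 and 2.19. The likeness rests on 4 libraries and is a description only.

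In whole animals, fewer cells of a type and less RNA per cell cannot be told apart. All 10 gut markers were detected, with summed levels of 8678 to 9837 CPM in the controls and 8096 to 9343 CPM after treatment and a median log2 fold change of 0.020. By edgeR 0 were called (2.05% of all genes), and 3 had an unadjusted p under 0.05 (27.3% of all genes). DESeq2 called 2 (10.9% of genes with a DESeq2 adjusted p). The gut esterase gene *ges-1* stood at 56.3 ± 6.45 and 89.8 ± 19.98 CPM, and the gut actin gene *act-5* at 572 ± 12.2 and 397 ± 62.6 CPM. Summed neuron markers went from 1240 and 1262 to 1604 and 1837 CPM, pharynx markers from 2928 and 3505 to 3941 and 4274 CPM, and body wall muscle markers from 7711 and 9269 to 10363 and 10169 CPM. Epidermis markers went from 203 and 224 to 184 and 123 CPM, and germline markers stayed between 90.7 and 96.6 CPM. Abundant genes weigh most in such sums. Of the epidermis markers, *dpy-7* alone went from 83.3 and 103 to 52.3 and 19.4 CPM. In that list 4 of 5 log2 fold changes were below 0, *lin-26* at -0.021, and *elt-3* was above at 0.14. In the gut sum *asp-1* alone read 6446 and 5330 CPM in the controls and 4850 and 5897 CPM after treatment. No marker gene of these lists was at 0 in all libraries, and their part in the results above was not tested.

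Moulting genes had a log2 fold change below 0 in 7 of 7 cases, with a median of -0.97. In 5 of them the treated libraries lay wholly below the controls (30.8% of all tested genes), and in *nas-37* and *bli-1* the groups overlapped. The summed level of the 7 was 598 and 858 CPM in the controls and 501 and 203 CPM after treatment. Replicate 2 of the treated group thus stood apart from replicate 1. By edgeR 0 of the 7 were called (2.05% of all genes), and 5 had an unadjusted p under 0.05 (27.3% of all genes). DESeq2 called 0 (10.9% of genes with a DESeq2 adjusted p). Across the same treated libraries *irg-5* read 9.44 and 9.53 CPM, *irg-4* 10.5 and 10.4 CPM and *irg-6* 3.83 and 2.72 CPM. Treated replicate 1 was also below both controls in the summed moulting level. The part of larval stage or moulting in the *irg* differences was not tested. Without Cyclo(Pro-Tyr) replicate 2, the log2 fold changes of *irg-5*, *irg-4* and *irg-6* were 1.91, 1.07 and 1.25.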

How the data were processed

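The deposited table holds raw counts of reads per gene, which the authors did not normalise, in 1 column per library, and 0 columns were left unused. Total RNA was made into stranded single-end libraries and read on a NextSeq550, per the labels' protocols. Bowtie2 and SAMtools are named in the submitters' processing notes. How reads were counted, with which build, annotation or use of strand, is not given in the sources used here. Groups and replicate numbers come from the sample titles. A treatment label disagrees with its title on the replicate number, and the title was used. The protocol and the series text give slightly different incubation temperatures.

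The test was that of edgeR 4.0.16, run in R 4.3.3 (quasi-likelihood, filterByExpr, TMM, treatment as the only term, Benjamini-Hochberg over 19439 genes, threshold 0.05). The fit was also run on simulated data with planted differences, which does not show how it behaves on these libraries. Gene names and order come from RefSeq (21890 of 21895 rows matched, assembly WBcel235) and exon lengths and overlaps from Ensembl release 115 (21871 rows). No coordinates are printed. The 8 genes and the lists were chosen with earlier results of these data known. In each list the called genes (at most 4), or else the 2 with the largest change, are named, with the 5 genes nearest to *irg-5*; others are said to be named after their values were seen. C09H5.2 and F35E12.8 of the effector list appear as *catp-3* and *cld-9*, and 1 of the 12, F49F6.5, was not analysed here. Related proteins were to be found by alignment; clone neighbours stood in for them. Intervals and limits cover counting error only. Alternatives included DESeq2 1.42.0, other scalings and filters, a replicate block and each library left out.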

Additional observations from a re-analysis of the deposited data

How the results depend on the processing

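The count of called genes (398, of which 139 higher and 259 lower) stayed within 1.5 times with DESeq2 size factors and with no filter. Total counts gave 215 genes (61 higher, 154 lower), upper-quartile scaling 841 (365 and 476), DESeq2's Wald test 1789 (791 and 998) and the filter of 5 CPM in 2 libraries 0 (0 and 0, with 3736 at an unadjusted p under 0.05). Fits without 1 library gave 0 to 4296 genes, 0 to 1886 higher and 0 to 2410 lower, the lowest without DMSO replicate 1 and the highest without Cyclo(Pro-Tyr) replicate 1. The cause was not tested. A replicate block gave 221 genes (46 higher), with 0 of the p38 genes and 0 of the other regulators called, which ends the calls of *nsy-1*, *daf-16* and *fshr-1* (adjusted p of 0.0851, 0.0605 and 0.0684). The replicate numbers are not known to mark shared cultures. Deviations of same-numbered libraries from their group means were weakly and inversely correlated (r = -0.20 over genes). A block with crossed numbers was therefore added after the data were seen, and gave 4581 genes (2171 higher, 2410 lower). Crossing by a correlation seen in these same data favours more calls, so nothing is read from that count.

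Calls among the 14 p38 genes (1) were 0 with total counts, 2 with upper-quartile scaling, 0 under the CPM filter, 3 by DESeq2 and 0 to 3 without single libraries. Among the 12 other regulators (2) they were 1, 3, 0, 4 and 0 to 4 in that order. By DESeq2, 1 gene was called among the other immune effectors, the other *irg* genes, the other *dod* genes and the chromosome IV stretch each, and 2 among gut markers. Without single libraries these lists gave 0 to 2, 0 to 1, 0 to 1, 0 to 3 and 0 to 3 calls, and the moulting genes 0 to 5. Clone neighbours gave 1 with DESeq2 size factors, 1 with no filter, 2 with upper-quartile scaling, 7 by DESeq2 and 0 to 18 without single libraries.

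The log2 fold change of *irg-5* was 1.88 with total counts and 1.94 with upper-quartile scaling, and 1.89 to 1.93 without single libraries. Those ranges were 0.83 to 1.36 for *irg-4*, 0.75 to 1.25 for *irg-6*, -0.026 to 0.16 for *dod-17* and -0.52 to -0.042 for *sysm-1*. Under the CPM filter *irg-6*, *sysm-1* and K08D8.5 were not tested. The sign turned for *clec-85*, a lectin gene named after its values were seen, with 0.0021 in the fit of all libraries, to -0.034 with total counts, -0.0075 under the CPM filter and -0.17 to 0.20 without single libraries. Leaving out single libraries also moved *pgl-1* between -0.18 and 0.020, *nhr-86* between -0.025 and 0.099 and *elt-2* between -0.022 and 0.12.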
